A study of Mus musculus with 15 samples.

Results

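Memory B cells were compared with naive B cells in 2 separate screens, and the question here was which gene functions changed alike in both and which changed by a different size or in a different direction. The 15 arrays of the series all entered the comparison (15 of 15), since it is the change in the second screen minus the change in the first. No array was left out of that comparison by a measured value. All cells were splenic B cells of mice carrying the mVh186.2 heavy chain transgene, sorted for binding of the hapten NP. First-screen naive cells (3 arrays, A to C) and memory cells (4 arrays, D to G) came from transgenic mice with no other allele named in the labels. Second-screen naive cells (4 arrays, A to D) were negative for AA4.1 and came from transgenic mice that were also Jk KO. Second-screen memory cells (4 arrays, EK, FG, HJ and I) arose from transgenic donor splenocytes transferred into AM14/Vk8R transgenic recipients, with no Jk KO named for those donors. The labels give no age, immunization or time for any group, do not say whether arrays with 2 letters hold pooled mice, and do not say how many recipient cells the sort could hold. The series' design text calls the replicates biological; whether each came from its own mouse is not given, so the p-values measure the spread between these samples.

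A memory B cell is an antigen-experienced, resting cell that answers a second contact with antigen faster than a naive cell. Naive splenic cells comprise recent arrivals from the marrow (transitional cells, which carry CD93, the molecule that the AA4.1 antibody binds), follicular cells that recirculate, and marginal zone cells next to the blood sinus. Memory cells of mice are known for the surface molecules CD80, PD-L2 and CD73.

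Screen could not be separated from several other properties. The screens used different sorters (FACSVantage SE and FACSAria), different labelling kits (EnzoBio and MessageAmp), not the same summary software as far as it is named, and different gates for naive cells, and the labels name the Jk KO and the transfer for second-screen groups only; in a difference between screens these cannot be told apart. Every offset of a probe set that is constant within a screen cancels in the contrast, but a difference in scale does not: over the tested features log2 values had an SD of 1.889 (first screen) and 2.166 (second screen). First-screen arrays also scattered more, and the fit gave second-screen arrays 5.727 times the weight of first-screen arrays. On the log2 scale, standard errors had medians of 0.254 (first-screen change), 0.0982 (second-screen change) and 0.272 (difference). In the first screen, array C (naive) and array G (memory) stood apart. Their correlations with the other 5 first-screen arrays were 0.925 and 0.920 at best, and their correlation with each other was 0.923. It was at least 0.932 among the other 5, and at least 0.961 among the arrays of the second screen. Results that rest on them are given with both arrays as a block of their own or without both. The sample titles do not tie C to G, and both were picked by their values. Setting aside arrays picked in this way can by itself narrow the spread. Calls that only those fits gave are therefore no independent support. The B lineage markers Cd79a, Cd79b, Ms4a1 and Cd22 lay above the median of all values on every array of each group, and Pax5 did so in every group but first-screen memory cells.

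The labelled light chain genotype was looked at first. The labels give the Jk KO, which removes the joining segments that kappa light chain genes need, to second-screen naive cells only. Igk-V8 signal (probe set 1427455_x_at; log2 of intensity + 1) was 3.16, 3.08, 3.47 and 2.58 on those 4 arrays, below that screen's median of 4.73. It was 11.86, 12.54, 12.50 and 12.37 on the second-screen memory arrays, 15.25, 15.17 and 15.03 on the first-screen naive arrays and 15.09, 15.34, 15.41 and 15.02 on the first-screen memory arrays. Of 5 kappa probe sets, each taken alone, 4 differed between the screens in their memory change. The median change of the 5 was 0.06 (first screen) and 8.34 (second screen). The 3 lambda probe sets had second-screen estimates of -0.35 to 0.03 and none differed between screens. The 12 heavy chain probe sets had median changes of 1.90 and 2.50, and for none was a difference called.

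Across the 12963 genes and unnamed probe sets above the median of both screens, the changes ran in the same direction more often than not. Memory cells differed from naive cells in 142 features in the first screen (1.1% of those tested; 113 higher and 29 lower) and in 4131 in the second (31.9%; 1568 higher and 2563 lower), by limma with Benjamini-Hochberg adjusted p under 0.05. Of the 142, 112 were called in the second screen in the same direction (78.9% of the first-screen and 2.71% of the second-screen calls; 0.864% of all features), 87 higher and 25 lower. A further 29 of the 142 were not called in the second screen. Of the 4131, 80.3% had an estimate of the same sign in the first screen, as did 8431 of all 12963 features. Pearson's r of the 2 changes across features was 0.575 and Spearman's rho 0.446, as a description over genes, which are not independent replicates and share the arrays. In what follows a pair of values gives the log2 change in the first screen and then in the second; a gene given by its pair of estimates alone passed in the second screen only, in the fit of all arrays.

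The difference itself was called for 50 features (0.386% of those tested), 28 in the positive direction (0.216%), meaning more positive or less negative in the second screen, and 22 in the negative (0.17%). Of the 50, 37 were called as changed in the second screen alone, 6 in the first alone, 6 in both the same way and 1 in both opposite ways. The estimates had opposite signs for 17, the same sign and a larger size in the second screen for 30, and the same sign and a larger size in the first for 3. The smallest of these differences was 0.865, and 1141 features had an unadjusted p under 0.05. With arrays C and G set as a block of their own, 272 differences were called (2.1%), 118 positive (0.91%) and 154 negative (1.19%). Without both arrays 503 were called (3.88%), 216 positive (1.67%) and 287 negative (2.21%). Each set included all 50. Leaving out naive A, naive B, memory D, memory E or memory F of the first screen left 21, 14, 17, 15 and 14 calls, and leaving out naive C gave 156. Median centring left 17 (15 positive and 2 negative), an equal scale of the screens 13 (9 and 4), and quantile normalization 15 (8 and 7). Centring each array on its median moved the median first-screen change of all features from -0.01 to -0.20 and that of the second screen to -0.05, and changes under it are relative to those shifts.

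**Figure D1:**
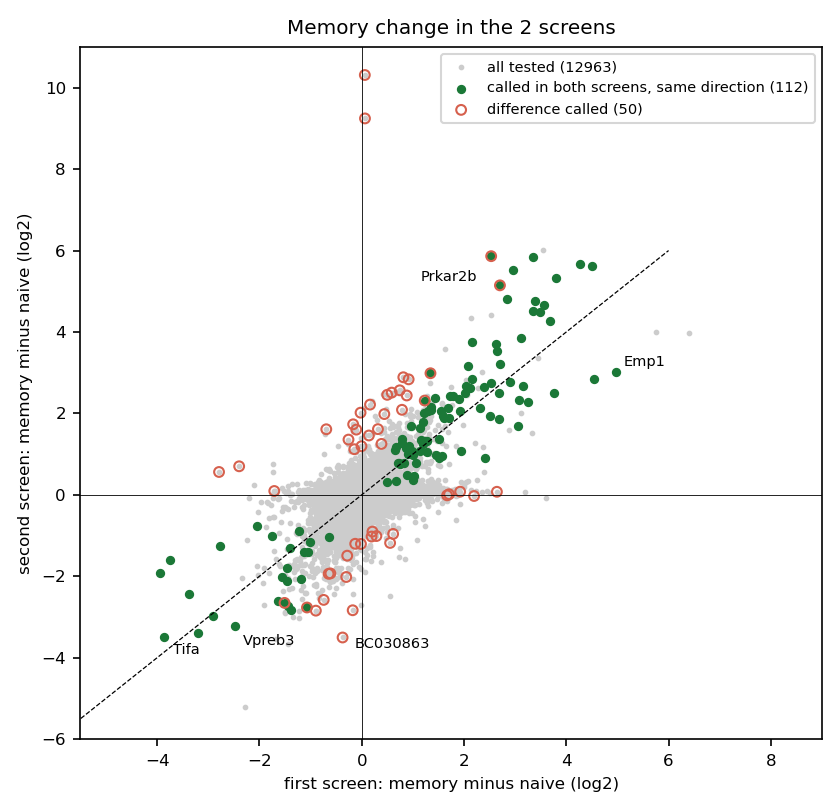
Change of memory against naive cells in the first screen (horizontal axis) and the second screen (vertical axis), both as a log2 difference, for 12963 features (grey). Filled points are the 112 features called in both screens in the same direction, open circles the 50 with a called difference, and the dashed line marks equal changes; the 2 circles above 8 are Igk-V8 and an unnamed probe set (1452417_x_at).

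Genes that rose in both screens were led by calcium-binding proteins and proteins of the cytoskeleton. S100a4, an S100 calcium-binding protein, read 7.27, 8.47 and 7.88 in first-screen naive and 12.39, 12.17, 12.43 and 11.61 in memory cells. In the second screen it read 7.42, 7.23, 6.99 and 7.46 in naive and 13.09, 12.89, 12.89 and 12.92 in memory cells. The groups did not overlap in either screen, and the changes were 4.28 ± 0.301 (SE) and 5.67 ± 0.116 (limma adjusted p = 3.76e-06 and 1.16e-14). The difference of 1.40 was not called (95% interval 0.71 to 2.08, adjusted p = 0.0932), and it was with the block and without arrays C and G (adjusted p = 0.0211 and 0.0484). S100a6, its close relative, rose 11.1-fold and 22.6-fold, from 10.52, 10.54 and 10.25 to 13.97, 14.11, 13.82 and 13.75 and from 10.21, 9.77, 9.36 and 9.997 to 14.49, 14.25, 14.28 and 14.31. All 15 tested members of the S100 and annexin list had positive estimates in both screens: 2 rose in the first screen (0.872% of all features did) and 14 in the second (12.1%), with no called difference. With the block 5 rose in the first screen, without arrays C and G 6, and 2 differences were called in each. The list median was 0.62 in both, and the median of the differences 0.22, against -0.05 over all features. Anxa2, which binds membranes in the presence of calcium, had estimates of 2.34 and 3.01, and S100a10, its partner, of 0.66 and 1.41; neither passed the test in the first screen. With the block and without arrays C and G, the first-screen rise of S100a10 passed (adjusted p = 0.0101 and 0.0189), as did its difference (adjusted p = 0.0101 and 0.0146). The neutrophil proteins S100a8 and S100a9 had the larger estimates in the first screen, 3.34 and 2.87, against 1.52 and 1.58, and passed only in the second, where their standard errors were smaller; the difference was not called for either. They also stand in the myeloid marker list, whose summed intensity was 7537 to 9518 in first-screen naive and 10688 to 17869 in memory cells, and 4293 to 13643 and 7386 to 12786 in the second screen; its part in these values was not tested.

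Of all the lists, the cytoskeleton list held the most genes called in both screens, 5 of 24 tested, all of them higher. Its counts were 5 higher and 0 lower in the first screen (0.872% and 0.224% of all features were). In the second they were 14 higher and 5 lower (12.1% and 19.8% of all features), the latter near the share of all features. The list medians were 0.26 and 0.54. Pdlim1, an adaptor of actin filaments, read 7.82, 8.35 and 8.62 in first-screen naive and 11.77, 11.74, 11.60 and 12.19 in memory cells. It read 6.44, 6.80, 6.34 and 6.54 in naive against 11.27, 11.41, 10.97 and 11.10 in memory cells in the second screen. The groups were apart in both, and the difference of 1.10 was not called (adjusted p = 0.206), and it was with the block and without arrays C and G (adjusted p = 0.0353 and 0.0456); a further probe set of the gene rose by 2.26 in the first screen and by 0.46 in the second, and the mean of both turned the sign of the difference to -0.35. Tppp, which promotes tubulin polymerization, rose by 4.50 and 5.62, Tubb6, a beta tubulin, by 3.38 and 4.76, Crip2, a LIM domain protein, by 1.59 and 1.93, and Vim, the intermediate filament vimentin, by 0.93 and 1.21. First-screen naive arrays of Tppp lay below their screen's median, so the size of that change depends on how dim signals were treated. Tppp passed the filter there through its memory arrays alone. Csrp2, a LIM domain protein, fell in the second screen (-3.53), with a first-screen estimate of -1.69 that did not pass.

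The surface molecules PD-L2 and CD80 of memory cells rose in both screens, as 2 of the 7 tested genes of that list. Of all features 0.864% were called in both screens the same way. Pdcd1lg2, which encodes PD-L2, read 8.21, 8.90 and 8.52 in first-screen naive and 10.44, 10.51, 10.75 and 10.79 in memory cells, and 5.39, 5.14, 5.45 and 5.62 in naive against 8.60, 8.70, 8.60 and 8.40 in memory cells in the second screen. The changes of 2.08 and 3.18 differed by 1.10 (0.49 to 1.70), which was not called in the fit of all arrays (adjusted p = 0.147) and was with the block and without arrays C and G (adjusted p = 0.0356 and 0.0347). Cd80, a costimulatory ligand, had the larger estimate in the first screen, 3.75 against 2.49, and the interval of their difference, -2.71 to 0.19, included 0. Nt5e, which encodes CD73, had estimates of 1.85 and 1.20 and passed in the second screen alone. The adenosine receptor Adora2a rose 4.04-fold and 5.64-fold. Of the 16 genes of the purine list 9 were tested. All 9 kept 1 sign across the screens, as did 8431 of all 12963 features. Of the 9, 6 were called higher in the second screen and 1 in the first (12.1% and 0.872% of all features were). Zbtb32, a transcriptional repressor of B cells, rose from 8.82, 9.001 and 8.80 to 11.43, 11.31, 11.28 and 12.06 in the first and from 7.73, 7.70, 7.21 and 7.50 to 11.27, 10.99, 10.86 and 11.16 in the second screen, with no overlap of arrays. Lifr, the receptor of leukemia inhibitory factor, rose by 3.35 and 4.52, Itgb7, an integrin chain of gut homing, by 0.86 and 1.14, and Emp1, an epithelial membrane protein, by 4.96 and 3.01. Emp1 is the one of the 10 largest shared rises with the larger estimate in the first screen, and its difference was called without arrays C and G (adjusted p = 0.000822; 0.196 with all arrays). The others of those 10 were Hepacam2 (3.35 and 5.85), Rfx2 (3.11 and 3.86) and D430019H16Rik (2.84 and 4.82). The difference for Hepacam2 was called with the block and without arrays C and G (adjusted p = 0.0249 and 0.0311), and those for D430019H16Rik and Zbtb32 without the arrays (0.0311 and 0.032). All naive arrays of Emp1, Lifr, Rfx2 and D430019H16Rik lay below the median in both screens, and those of Hepacam2 and Cd80 in the first, so the sizes of these rises depend on how dim signals were treated. In those screens these genes passed the filter through their memory arrays, the group where they were high. Their place among the shared rises therefore rests in part on the filter. Without a filter 6 shared changes were called in place of 112.

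Genes of transitional and follicular naive cells that were called in both screens all fell, 2 of 3 and 2 of 12 tested. Of all features 0.864% were called in both screens the same way. Cd93, whose product the AA4.1 antibody recognizes, read 9.39, 9.21 and 9.20 in first-screen naive and 6.48, 6.27, 4.76 and 6.71 in memory cells. It read 7.03, 7.95, 7.79 and 7.80 in the AA4.1-negative naive cells of the second screen and 4.38, 4.62, 4.36 and 3.67 in memory cells. The change was -3.21 ± 0.591 and -3.39 ± 0.229, and the difference of -0.18 had an interval of -1.52 to 1.17 (adjusted p = 0.973); its further probe set fell by 3.27 and 3.93. All memory arrays of Cd93, Tifa, Tceal8 and Armcx4 lay below the median in both screens, so the sizes of their falls, and of the differences between them, rest on dim signal. These genes passed the filter through their naive arrays alone, the group where they were high. Vpreb3, a chaperone of the B cell receptor in immature B cells, read 11.86, 12.004 and 12.02 in naive against 9.61, 9.70, 9.64 and 8.96 in memory cells in the first and 9.58, 9.77, 9.79 and 9.70 in naive against 6.38, 6.82, 6.52 and 6.19 in memory cells in the second screen. Array G was the lowest of the first-screen memory arrays, and the groups did not overlap. Tifa, an adaptor of TRAF signaling, read 8.28, 7.86 and 9.38 in naive against 4.41, 5.23, 4.43 and 4.50 in memory cells in the first screen, with no overlap, and fell in both screens. Fcer2a, the low-affinity IgE receptor CD23 of follicular cells, changed by -1.04 and -1.40 and was called in both. All 12 follicular genes had the same sign in both screens; 2 fell in the first screen (0.224% of all features did), 8 fell and 2 rose in the second (19.8% and 12.1%), and no difference was called. With the block 5 fell in the first screen and 2 differences were called, for Klf2 and Btla. Bach2, a repressor of plasma cell fate, had estimates of -1.29 and -1.60, and Ccr7, which guides cells to T cell zones, of -0.89 and -1.11; both passed in the second screen only. Cd72, an inhibitory receptor, changed by -1.19 and -2.07, both called, and its difference of -0.88 was called with the block and without arrays C and G (adjusted p = 0.0112 and 0.0114) but not with all arrays (0.154). Further genes among the 10 largest shared falls were Pcp4, which modulates calmodulin (-2.91 and -2.97), Cpm, a carboxypeptidase (-1.63 and -2.60), Tsc22d1 (-1.57 and -2.02), Sapcd1 (-1.46 and -2.11), Tceal8 (-3.38 and -2.43) and Armcx4 (-3.74 and -1.60).

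**Figure D2:**
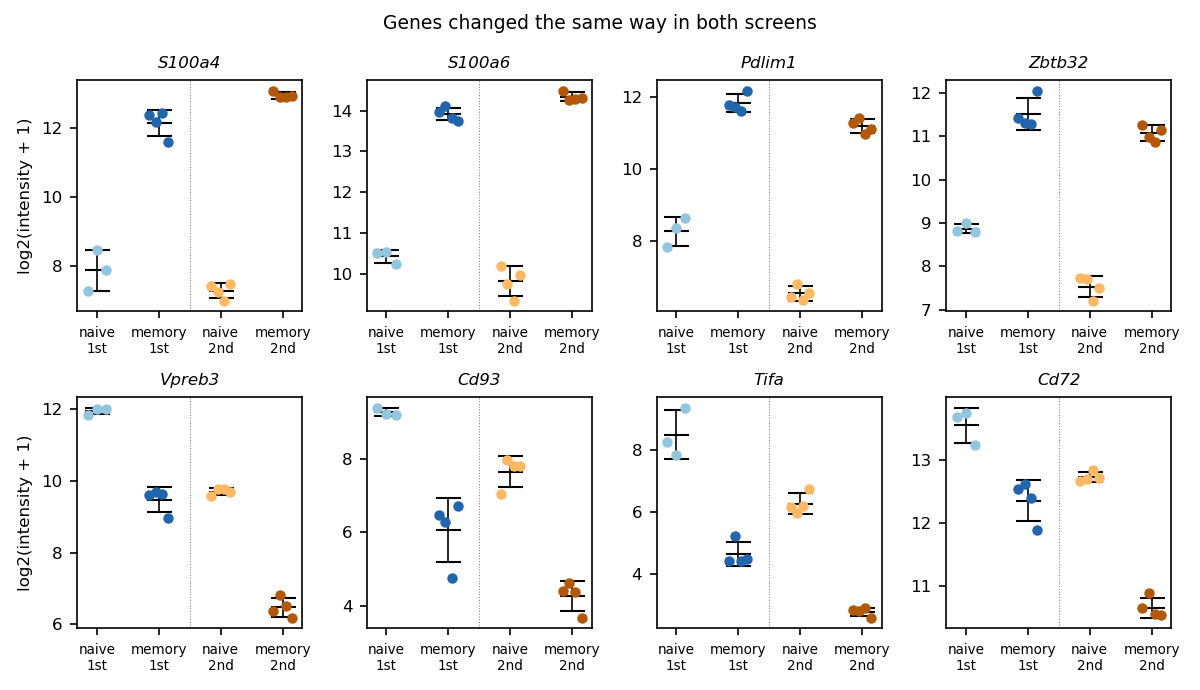
Signal of 8 genes changed in the same direction in both screens, as log2(intensity + 1) on the vertical axis, for the 3 or 4 arrays of each group; points are arrays and bars the mean ± SD. Naive and memory arrays do not overlap in either screen for any of the 8, and levels are to be compared within a screen only.

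Ccnd2, Igsf9, Anp32a, Eps8, Cish, Rap1gap and Cd2 had a called difference and passed as higher in the second screen only. Ccnd2, the D-type cyclin that B cells use to leave G1, read 12.28, 12.47 and 12.17 in first-screen naive and 12.39, 12.30, 12.44 and 11.67 in memory cells, and these overlapped. It read 11.46, 11.41, 11.32 and 11.26 in second-screen naive and 13.02, 13.09, 12.80 and 12.94 in memory cells, which did not overlap. The changes of -0.11 ± 0.199 and 1.60 ± 0.077 differed by 1.71 (1.25 to 2.16, adjusted p = 0.00139). Its 6 tested probe sets gave differences between 1.71 and 2.67, and the call was kept whichever array was left out. Igsf9, an immunoglobulin superfamily member, had estimates of -0.02 and 2.02 (adjusted p of the difference 0.00154), reading 5.04, 5.06, 5.04 and 5.31 in second-screen naive and 7.18, 6.95, 7.07 and 7.31 in memory cells, but a further probe set gave a difference of -0.41. Anp32a, a nuclear phosphoprotein, had estimates of -0.17 and 1.73 (adjusted p 0.00788), while its 3 probe sets gave differences from -0.75 to 1.90. Eps8, a regulator of actin, had estimates of -0.69 and 1.61, with its 2 probe sets at -0.45 and 2.30 for the difference. When a gene's probe sets were averaged, the calls for Igsf9, Anp32a and Eps8 ended (adjusted p = 0.381, 0.67 and 0.446). Cish, an inhibitor of cytokine receptors that STAT5 induces, read 8.13, 8.44 and 8.65 in naive against 8.85, 9.19, 9.63 and 8.93 in memory cells in the first and 5.86, 6.17, 5.92 and 6.07 in naive against 8.97, 8.35, 8.33 and 8.62 in memory cells in the second screen. Naive and memory arrays were apart in both, and the changes of 0.74 and 2.57 differed by 1.82 (adjusted p = 0.0358). Rap1gap, which switches off the GTPase Rap1, had estimates of 0.50 and 2.46 (adjusted p 0.0228), and Cd2, an adhesion molecule of lymphocytes that also stands in the T cell marker list, of 0.39 and 1.25 (adjusted p 0.0224). The other T cell markers tested did not rise with it: Lck fell by 2.02 in the second screen, the estimates there for Cd8a (-0.17) and Zap70 (0.04) did not pass, and of the 12 markers on the array 8 lay above the median on all naive and 6 on all memory arrays of that screen.

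Prkar2b and Stac2 rose in both screens, and their difference was called as larger in the second in the fit of all arrays. Prkar2b, a regulatory subunit of protein kinase A, read 7.05, 6.999 and 6.96 in first-screen naive and 9.65, 9.60, 9.51 and 10.05 in memory cells. It read 7.87, 7.22, 7.002 and 7.22 in second-screen naive and 12.64, 12.37, 12.28 and 12.60 in memory cells. The arrays were apart in both screens, the folds were 6.51 and 35.4, and the log2 difference was 2.44 ± 0.393 (adjusted p = 0.0144). All 3 probe sets of Prkar2b gave differences of 1.97 to 3.05. Stac2, an adaptor with an SH3 domain, rose by 1.34 and 2.99 (adjusted p of the difference 0.0358). Under an equal scale of the screens neither difference was called (adjusted p = 0.101 for Prkar2b and 0.19 for Stac2). Under quantile normalization neither was called either (0.269 and 0.276). Of the 15 fits that left out 1 array, 10 called the difference of Prkar2b and 9 that of Stac2. In the list of cyclic AMP and RGS genes (21 tested) 1 difference was positive (Prkar2b) and 1 negative (Rgs10), against 0.216% and 0.17% of all features. The phosphodiesterase Pde2a changed by -2.06 (first screen) and -0.76 (second screen). That difference was called with the block and without arrays C and G (adjusted p = 0.0175 and 0.0311) but not with all arrays (0.0742).

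Ly6a and Rgs10 had the smallest adjusted p among the named genes with a negative difference. Ly6a, the surface protein Sca-1, read 14.28, 14.47 and 14.39 in first-screen naive and 13.08, 13.29, 13.47 and 13.40 in memory cells. It read 12.79, 13.002, 12.86 and 12.68 in naive against 10.12, 10.17, 10.15 and 9.83 in memory cells in the second screen, with no overlap in either. The fall was 2.1-fold in the first and 6.81-fold in the second screen, and the log2 difference was -1.70 (-2.15 to -1.24, adjusted p = 0.00139). Rgs10, which speeds the shut-off of inhibitory G proteins, read 11.37, 11.46 and 11.21 in naive against 10.71, 10.46, 10.33 and 10.28 in memory cells in the first and 9.72, 10.12, 9.79 and 9.65 in naive against 6.88, 6.88, 7.10 and 7.04 in memory cells in the second screen. It fell by 2.85 in the second screen, had an estimate of -0.90 in the first that did not pass (adjusted p = 0.101), and differed by -1.95 (adjusted p = 0.0017). Its first-screen fall passed with the block and without arrays C and G (adjusted p = 0.0101 and 0.0188). The calls for Ly6a and Rgs10 were kept without any 1 array; that for Rgs10 ended under median centring (adjusted p = 0.0916). Selenop, a selenium transport protein, fell 2.85-fold and 6.3-fold (difference -1.14, adjusted p = 0.023). Arhgap24, which acts on the GTPase Rac, had estimates of -0.61 and -1.93, Gngt2, a gamma subunit of G proteins, of 0.19 and -1.02, and Derl3, a factor of protein disposal from the endoplasmic reticulum, of -0.30 and -2.02. Grap2, an adaptor of receptor signaling in lymphocytes, had estimates of -0.74 and -2.58, and its further probe set gave a difference of 1.09 in place of -1.84. BC030863 had estimates of -0.37 and -3.50, the largest negative difference with a gene name (-3.13, adjusted p = 0.017), with its further probe set at 0.01. Caprin2, an RNA-binding protein, had estimates of 0.55 and -1.18 (adjusted p of the difference 0.0496), and Pgm1, a phosphoglucomutase, of 0.61 and -0.96 (adjusted p 0.0265); in both, only the second-screen fall passed with all arrays. First-screen naive array C of Pgm1 read 9.11, within the memory range of 9.15, 8.98, 9.26 and 9.14; without arrays C and G the first-screen estimate of 0.91 passed as a rise (adjusted p = 0.0224).

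Among the named genes Upk2 and Pllp were called in the first screen alone. Upk2, a uroplakin, read 8.76, 8.31 and 8.71 in first-screen naive and 6.42, 7.66, 6.78 and 6.68 in memory cells, and 7.22, 7.28, 7.39 and 7.44 in naive against 7.40, 7.44, 7.47 and 7.40 in memory cells in the second screen, where the groups overlapped. It fell by 1.71 in the first screen with an estimate of 0.09 in the second, a difference of 1.80 (adjusted p = 0.0136). Pllp, plasmolipin, rose 3.27-fold in the first screen from a level below its median, and its second-screen arrays all lay between 4.80 and 5.13 (difference -1.69, adjusted p = 0.0397). Pllp passed the first-screen filter through its memory arrays alone. Clec2d, a C-type lectin that binds an NK cell receptor, had the largest positive difference of the genes named by the rule, 3.10 (adjusted p = 0.035). Its first-screen memory arrays read 9.29, 9.58, 9.05 and 6.47, with array G far below the others, against 10.70, 10.97 and 11.31 in naive cells. In the second screen it read 8.999, 8.87, 9.25 and 9.11 in naive against 9.39, 9.92, 9.73 and 9.995 in memory cells. It rose by 0.70 in the second screen, the first-screen estimate of -2.40 did not pass (adjusted p = 0.0567), and without arrays C and G that estimate was -1.53 and the difference 2.23. The first-screen fall passed with the block and without both arrays (adjusted p = 0.00548 and 0.00364), and Clec2d was then called in opposite directions in the screens. With all arrays 1 of the tested features was called in both screens in opposite directions, an unnamed probe set (1445141_at): it fell by 2.79 in the first screen, from 7.32, 7.13 and 7.80 to 4.35, 3.79, 5.28 and 5.08, and rose by 0.56 in the second, from 8.81, 8.89, 8.97 and 8.64 to 9.34, 9.41, 9.19 and 9.61. All first-screen memory arrays of this probe set lay below that screen's median, so the size of its fall rests on dim signal. It passed the first-screen filter through its naive arrays alone, the group where it was high. With the block 3 features were called in opposite directions, and without arrays C and G 16, among them Clec2d and, without the arrays only, Pgm1.

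Of the 22 named differences, all 22 were called with the block and without arrays C and G. Without a filter on dim probe sets none of them was called (adjusted p from 0.108 to 0.592), while 98 features were, 3 of them among the 50. Under quantile normalization 5 of the 22 were called, under an equal scale 6 and under median centring 7. Leaving out naive A or B, or memory D, E or F, of the first screen kept 5 to 8 of them.

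**Figure D3:**
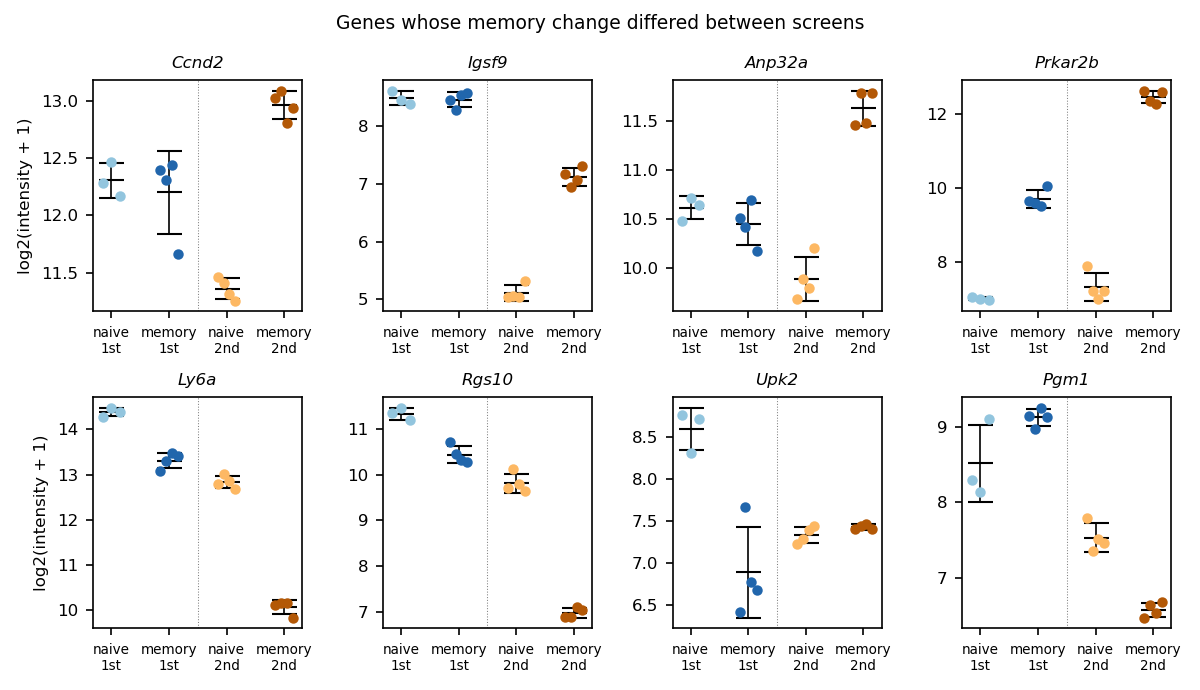
Signal of 8 genes whose memory change differed between the screens, as log2(intensity + 1) on the vertical axis, for the arrays of each group; points are arrays and bars the mean ± SD. Ccnd2, Igsf9 and Anp32a differ between naive and memory arrays in the second screen only, Prkar2b, Ly6a and Rgs10 are apart in both, and Upk2 is apart in the first screen only.

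Genes of dividing cells were lower in memory cells of the second screen, and with all arrays or the block no difference between screens was called in the cell cycle list; without arrays C and G 1 was, in the negative direction. Of 37 tested cell cycle genes 31 fell and 1 rose in the second screen (19.8% and 12.1% of all features did), and none was called in the first. List medians were -0.41 (first screen) and -1.04 (second screen), and 32 of 37 differences were negative, with a median of -0.57 (-0.05 over all features). Standard errors were wide here: the median over the list was 0.64 for the difference, against 0.272 over all features. Mki67, a marker of dividing cells, had estimates of -0.70 and -2.08, Top2a, which untangles DNA, of -0.81 and -2.43, and Rrm2, which makes deoxyribonucleotides, of -0.64 and -2.27. Ccnb2, a mitotic cyclin, read 8.77, 8.75 and 9.47 in naive against 9.02, 8.94, 9.22 and 8.11 in memory cells in the first screen, which overlapped, and 6.78, 8.67, 7.15 and 7.91 in naive against 5.42, 5.37, 5.25 and 4.72 in memory cells in the second, which did not. Its difference of -2.27 had an interval of -4.02 to -0.52 (adjusted p = 0.385). The mitotic kinase Ttk had estimates of 0.06 and -1.90. All second-screen memory arrays of Ttk lay below that screen's median, so the size of its fall rests on dim signal. Ttk passed the second-screen filter through its naive arrays alone, the group where it was high, and other members of the list could pass in this way too. The licensing factors Mcm5 and Mcm4 had nearly equal estimates in both screens, -0.83 and -0.77, and -0.51 and -0.51. Ccne1, cyclin E1, was the member that rose, by 0.59. In these sorted populations fewer dividing cells and less RNA per cell cannot be told apart. Ccnd2, which rose in the second screen, is not in this list. The germinal center list had 8 tested genes, of which 6 fell in the second and none in the first screen (19.8% and 0.224% of all features did). Its medians were -0.05 and -1.13, and all 8 differences were negative but none called. Bcl6, the germinal center regulator, had estimates of -1.16 and -1.73.

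Genes induced by type I interferon were lower in memory cells of the second screen, and 24 of 31 had estimates of the same sign in both. Of 31 tested members 24 fell and 2 rose in the second screen (19.8% and 12.1% of all features did), and none was called in the first. Of their differences 27 of 31 were negative (median -0.45), against 7361 of 12963 over all features (median -0.05). No difference was called in the fit of all arrays; with arrays C and G as the block 5 members fell in the first screen and 5 differences were called, all negative, for Irf9, Ifit3, Ifi44, Usp18 and Rtp4 (1.19% of all features were called negative there). Without both arrays 4 fell in the first screen, and 1 difference was positive and 3 negative. Ifi44 read 10.75, 10.72 and 11.16 in first-screen naive and 9.39, 9.52, 9.37 and 10.31 in memory cells, with array G nearest to the naive arrays. It read 10.04, 9.89, 10.17 and 9.67 in naive against 6.79, 6.57, 7.23 and 7.03 in memory cells in the second screen. Its changes of -1.23 and -3.04 differed by -1.81 (adjusted p = 0.0547, and 0.00423 with the block, where its first-screen fall also passed, 0.0137). Irf7, a transcription factor that amplifies the response, had estimates of -0.49 and -2.07, Usp18, which restrains the receptor, of -1.09 and -2.40, and Rtp4 of -0.44 and -2.03. The exceptions were Oasl2, with -0.72 and 1.496, and Gbp3, with 0.36 and 1.02; both rose in the second screen. The receptor chains Ifnar1 and Ifnar2 also fell there, by 0.56 and 0.69.

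Because 24 interferon genes fell together in the second screen, the start regions of 3 of them are shown. Each run gives the 250 bases before the start of the gene in RefSeq on GRCm38.p6, 5′ to 3′ on the gene's strand, and capitals mark every match, on either strand, to 2 copies of GAAA separated by any 2 bases, the core of the element (ISRE) that interferon-activated factors bind. It was the only motif searched, and overlapping matches join into 1 run of capitals.
Ifit3 (chr19:34583279-34583528, plus strand; change -0.88 and -1.88): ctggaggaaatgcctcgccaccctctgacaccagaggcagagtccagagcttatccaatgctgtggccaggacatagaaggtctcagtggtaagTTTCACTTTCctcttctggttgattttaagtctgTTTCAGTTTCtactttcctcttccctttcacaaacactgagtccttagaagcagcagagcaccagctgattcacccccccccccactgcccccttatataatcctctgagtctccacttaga
Ifit1 (chr19:34640639-34640888, plus strand; change -0.78 and -1.64): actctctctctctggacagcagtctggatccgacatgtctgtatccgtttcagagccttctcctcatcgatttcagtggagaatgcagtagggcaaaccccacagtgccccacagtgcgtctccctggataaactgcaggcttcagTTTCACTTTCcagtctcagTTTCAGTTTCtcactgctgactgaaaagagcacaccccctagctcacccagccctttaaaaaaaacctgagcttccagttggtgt
Isg15 (chr4:156200819-156201068, minus strand; change -0.46 and -1.37): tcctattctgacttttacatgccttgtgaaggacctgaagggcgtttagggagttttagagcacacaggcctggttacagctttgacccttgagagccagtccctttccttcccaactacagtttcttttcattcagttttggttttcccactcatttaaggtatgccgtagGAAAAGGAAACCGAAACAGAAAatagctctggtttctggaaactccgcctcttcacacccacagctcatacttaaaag
The 3 windows hold 2, 2 and 3 matches, between 57 and 156 bases before the start. A match was found for 11 of 22 tested interferon genes with an entry in the table, against 257 of 7619 tested genes (3.37%) and 936 of 27025 genes in all (3.46%). The list holds genes known to be induced by interferon, so a high share follows from how it was made. It says nothing about the falls in these arrays. The 3 shown are those with the largest falls among the 11; the 11 also hold Gbp3, which rose in the second screen, and Oas3, Bst2 and Gbp2, with second-screen estimates of -0.09, -0.02 and 0.03. A match is a run of letters and no evidence that a factor was bound in these cells, and no match says only that these letters are not in the window.

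**Figure D4:**
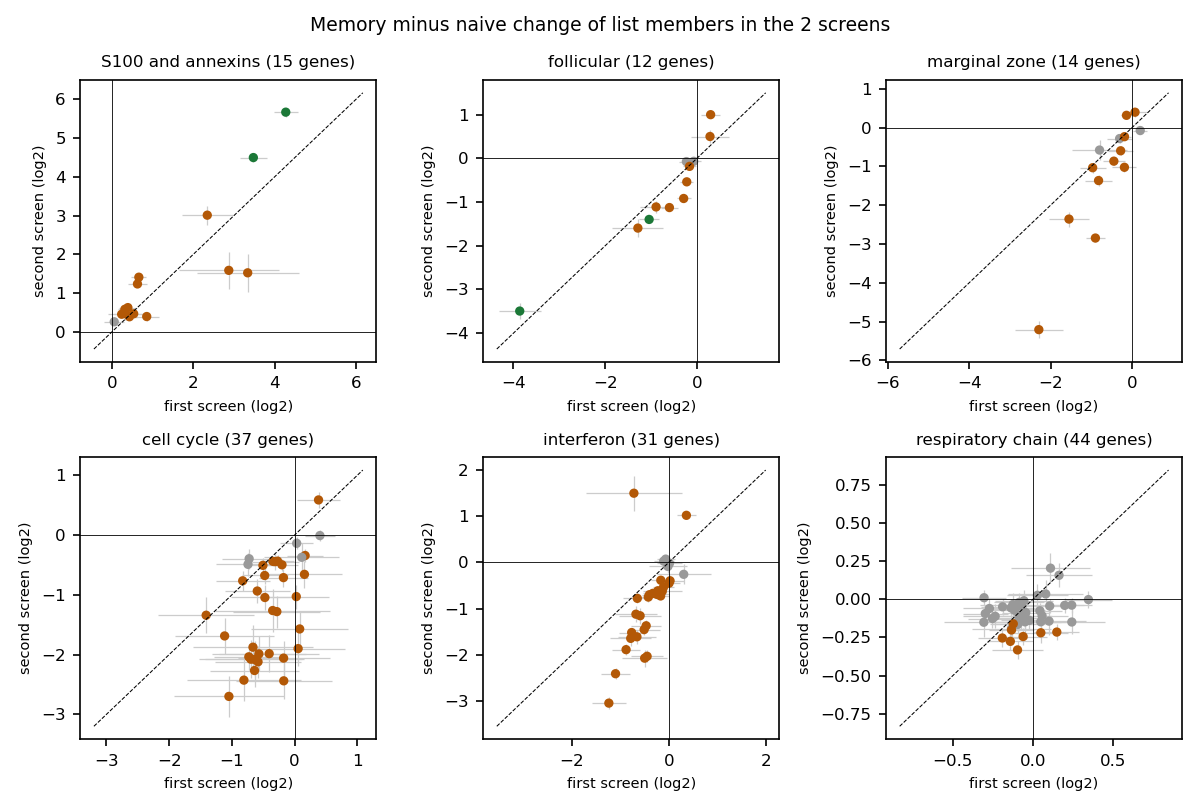
Change of memory against naive cells (log2) in the first screen (horizontal axis) and the second screen (vertical axis) for the tested genes of 6 lists; bars are standard errors and the dashed line marks equal changes. Green points passed in both screens, orange-brown points in the second only and grey points in neither; cell cycle and interferon genes lie mostly below the line, S100 and annexin genes around or above it.

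Of 14 tested marginal zone genes 9 fell and 2 rose in the second screen (19.8% and 12.1% of all features did). The difference was called for 1, Rgs10 (0.386% of all features). Cd9, a tetraspanin, had estimates of -1.55 and -2.36, and Cd1d1, which presents lipids, of -0.97 and -1.03. Cd36, a scavenger receptor, had the lowest values of the list in both screens, -2.29 and -5.21, and its difference was called with the block (adjusted p = 0.00353) but not with all arrays (0.0613); its first-screen fall also passed with the block (0.00506). Among B-1 cell genes Cd5, an inhibitory receptor, had opposite estimates, 0.23 and -1.49, with the second-screen fall called and the difference of -1.72 called with the block and without arrays C and G (adjusted p = 0.0305 and 0.0338) but not with all arrays (0.146). All second-screen memory arrays of Cd5 lay below that screen's median, so the sizes of its fall and difference rest on dim signal. Cd5 passed the second-screen filter through its naive arrays alone, the group where it was high.

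Immediate early genes, which answer to stimulation and to cell handling, had list medians of -0.48 and -0.24. In the second screen 7 of 21 fell and 6 rose (19.8% and 12.1% of all features did). Egr3 had estimates of -1.23 and -2.86, Nr4a1, which follows antigen receptor signals, of -1.501 and -2.88, and Fosl2 rose in both screens by 3.25 and 2.28. All first-screen naive arrays of Fosl2 lay below that screen's median, so the size of that rise depends on how dim signals were treated. Fosl2 passed the first-screen filter through memory arrays alone, the group where it was high. The difference for Egr3 was -1.63 (adjusted p = 0.0609, and 0.0101 with the block), and its first-screen fall passed with the block (0.00984). Fos had estimates of -1.74 and 0.77, neither of which passed. Genes of quiescence gave no uniform picture: Klf2, which keeps lymphocytes at rest, rose by 0.999 in the second screen with a first-screen estimate of 0.30, Klf4 had estimates of -0.74 and 1.01, and Foxo1 of -0.78 and -1.26; the second-screen values of these 3 passed. With the block the difference was called for Klf2 and Klf4 (adjusted p = 0.0453 and 0.032), and without arrays C and G it was not (0.0655 and 0.0664).

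Of 13 anti-apoptotic genes 1 rose and 6 fell in the second screen, and of 14 pro-apoptotic genes 2 rose and 2 fell (12.1% and 19.8% of all features did). In the first screen 1 pro-apoptotic gene rose (0.872% of all features did), and no difference was called in the fit of all arrays. Bcl2, which blocks cell death, had estimates of -0.04 and -0.87 (difference -0.83, adjusted p = 0.143, and 0.0213 with the block). Bcl2l11, the death activator Bim, had estimates of -0.22 and -1.82 (-1.60, adjusted p = 0.111, and 0.0189 with the block). Pim1, a survival kinase, had estimates of 0.44 and 1.54 (1.10, adjusted p = 0.146, and 0.0202 with the block). Pmaip1, the death activator Noxa, rose in both, by 1.06 and 0.79. Among cytokine receptors Il2rb had estimates of 0.74 and -1.30 and Il7r of 0.07 and -1.41, with only the second-screen falls called; the difference for Il2rb was called with the block and without arrays C and G (adjusted p = 0.0201 and 0.0231) but not with all arrays (0.233). Il2rb, Il7r and Gzma are also genes of NK or T cells. The summed intensity of 10 NK cell markers was 619 to 1001 in second-screen naive and 187 to 303 in memory cells, against 685 to 925 and 911 to 1303 in the first screen, and Gzma had estimates of 0.55 and -2.48; the part of such cells in these values was not tested.

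Housekeeping functions had medians near 0 in both screens. Of all features 12.1% were called higher and 19.8% lower in the second screen, and 0.872% and 0.224% in the first. A count below that lies near these shares is no result about its list. The 48 ribosomal protein genes had medians of -0.01 and -0.02, with 4 lower in the second screen and differences between -0.15 and 0.21, none of them called. The 35 proteasome genes had medians of 0.01 in both, with 3 higher in the second. Respiratory chain genes (44 tested) had medians of -0.08 and -0.11, with 8 lower in the second screen and none in the first, and glycolysis genes (22) of 0.10 and 0.06, with 7 higher and 2 lower. Ribosome biogenesis genes had medians of 0.05 and 0.23, with 12 of 28 higher in the second screen, among them Polr1a, the large subunit of RNA polymerase I (0.08 and 0.49), and Myc (0.07 and 0.68); 25 of 28 differences were positive and none was called, and with median centring the first-screen median was -0.14. Genes of the secretory pathway had medians of -0.06 and -0.07, the antibody-secreting cell list -0.06 and 0.09. Antigen presentation genes (23 tested) and B cell receptor signaling genes (28) had medians between -0.07 and -0.04 in both screens, with 5 higher and 7 lower, and 3 higher and 7 lower, in the second. Vav3, a signaling adaptor of the receptor, had estimates of -0.73 and -1.86, and Pik3ap1, which links the receptor to PI3 kinase, of -0.39 and -0.98. Toll-like receptor genes (18 tested) had medians of -0.02 and -0.08, with 2 higher and 6 lower in the second screen.

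**Figure D5:**
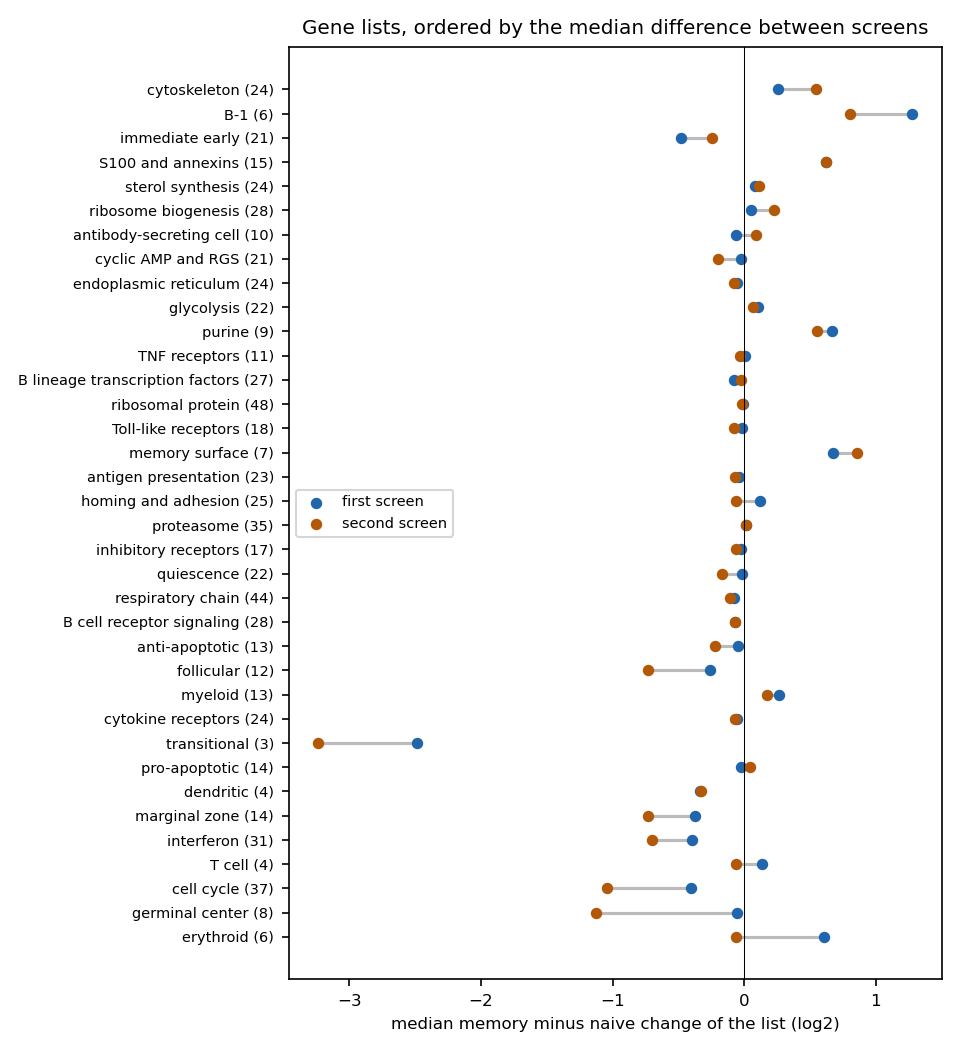
Median change of memory against naive cells (log2, horizontal axis) of each gene list with at least 3 tested members, in the first and second screen, ordered by the median of the differences; the number of tested genes stands in parentheses. Transitional genes are lowest in both screens, while germinal center and cell cycle genes lie lower in the second screen than in the first.

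A marker of red cell precursors rose in the first screen. Alas2, the heme synthesis enzyme of red cell precursors, read 3.25, 6.60 and 4.54 in first-screen naive and 9.78, 8.21, 7.93 and 7.67 in memory cells, a rise of 3.60 (adjusted p = 0.0408). These naive arrays all lay below that screen's median, so the size of the rise depends on how dim signals were treated. Alas2 passed the first-screen filter through its memory arrays alone, the group where it was high. In the second screen it read 4.59, 5.01, 5.01 and 5.68 in naive against 5.56, 4.90, 4.46 and 5.08 in memory cells, which overlapped. The difference of -3.68 was called with the block and without arrays C and G (adjusted p = 0.0313 and 0.0382) but not with all arrays (0.0932). The summed intensity of 11 erythroid markers was 7985 to 12593 in naive and 11301 to 28871 in memory cells of the first screen, and 4851 to 9082 and 3947 to 7926 in the second; red blood cells had been depleted before every sort. Dendritic cell markers (9) summed to 11665 to 12651 and 5900 to 9299 in the first and 7744 to 8588 and 3133 to 4044 in the second screen. The range in memory cells lay below that of naive cells in both. Most of this sum was Cd83, which B cells also make. Its mean log2 signal in naive and memory cells was 13.34 and 12.60 (first screen), and 12.93 and 11.66 (second screen). Bst2, the next highest marker, had 9.07 and 9.09, and 7.80 and 7.78. Cd83 had estimates of -0.74 and -1.27 and was called in the second screen. T cell markers (12) summed to 7345 to 8475 and 9461 to 10304 in the first and 3310 to 3863 and 5778 to 6526 in the second screen, a sum made up mostly of Cd2. Platelet markers (7) summed to 1262 to 1499 and 1171 to 1611 in the first and 146 to 155 and 142 to 165 in the second. The part of other cells in the differences between screens was not tested.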

How the data were processed

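The 15 arrays were Affymetrix mouse expression arrays of 45101 probe sets. The values analysed are the intensities that the authors deposited, on a linear scale. The submitters' processing notes name GCRMA for the second screen; for the first screen the sources used here name no software. Of the probe sets, 64 controls were left out. Symbols come from the authors' deposited tables, brought to current RefSeq names: 6266 were named through an accession, 12400 were current, 12188 were updated through synonyms and 298 through other names, 1067 were kept and 12818 had none.

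From these, log2(intensity + 1) was computed. A probe set was tested where it lay above its own screen's median on at least 3 arrays of the first and 4 of the second screen, with 1 probe set per gene, the one with the highest mean; 19781 probe sets passed and gave 12963 features, 9698 with a symbol. A gene could thus pass through its naive or its memory arrays alone. limma 3.58.1 (R 4.3.3) fitted the 4 groups with array weights per screen and a mean-variance trend, and p-values were Benjamini-Hochberg adjusted over all features with a threshold of 0.05, two-sided; every adjusted p printed is from this fit or its named alternative. The fit was tested on simulated data. Intervals are at 95%. The number of arrays limits the precision. Tables used Python 3.11.15, NumPy 2.4.6 and pandas 2.3.3, figures Matplotlib 3.10.9. Named genes are the 10 largest differences each way, the 10 largest shared changes each way (by the smaller change) and, per gene list, members with the smallest p of the difference; genes named beyond these examples were chosen after their values were seen. Members and lists were chosen with earlier results of these data known, and promoter sequences come from RefSeq (GRCm38.p6).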

Additional observations from a re-analysis of the deposited data

Results flagged for a closer look

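The memory change differed between the screens, by the limma test of the difference itself, for 22 named genes. Second-minus-first differences (log2) were positive for Clec2d (3.10), Prkar2b (2.44), Eps8 (2.30), Igsf9 (2.04), Rap1gap (1.96), Anp32a (1.90), Cish (1.82), Upk2 (1.80), Ccnd2 (1.71), Stac2 (1.64) and Cd2 (0.865). They were negative for BC030863 (-3.13), Rgs10 (-1.95), Grap2 (-1.84), Caprin2 (-1.74), Derl3 (-1.72), Ly6a (-1.70), Pllp (-1.69), Pgm1 (-1.57), Arhgap24 (-1.32), Gngt2 (-1.22) and Selenop (-1.14).

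Among the named genes, 23 values lay far from the other arrays of a group of 4 (Dixon's test at 95%, which by chance marks about 1 in 20 groups). In first-screen memory cells array G did so for Clec2d (6.47), Arhgap24 (8.51), Emp1 (7.51), Vpreb3 (8.96), Pax5 (7.81), Dpp4 (10.8), Ifi44 (10.3) and Tuba1a (12.6), on the log2(intensity + 1) scale, and array E for Tifa (5.23). In second-screen memory cells array EK did so for S100a4 (13.1), Armcx4 (3.41), Cd2 (12.4) and Lyz2 (9.32), array I for Ly6a (9.83), Fkbp11 (7.10) and Ndufs4 (9.76), array HJ for Il7r (5.64) and Pmaip1 (10.6), and array FG for Gzma (5.11). In second-screen naive cells array D did so for Igsf9 (5.31) and Irak2 (8.75), array B for D430019H16Rik (4.03) and array C for Cd80 (3.90). With 3 arrays, first-screen naive cells were not examined in this way.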

How the results depend on the processing

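No paired analysis was possible because the array letters do not tie a naive array to a memory array. The count of called differences (50) became 98 without a filter, 17 with median centring, 15 with quantile normalization, 13 with an equal scale of the screens, 176 without array weights, 970 with weights for each array, 135 with separate fits, 503 without arrays C and G, 272 with both as a block, and 14 to 156 when 1 array was left out. First-screen calls (142) became 33 with median centring, 851 without array weights, 1399 with weights for each array, 905 without arrays C and G, 667 with the block, and 51 to 316 when 1 array was left out. Second-screen calls (4131) became 1835 without array weights, 716 at a fold of at least 2, and 3383 to 4358 when 1 array was left out. Shared calls (112) became 52 with a filter in either screen, 6 without a filter, 31 with median centring, 518 without array weights, 740 with weights for each array, 442 without arrays C and G, 441 with the block, and 43 to 169 when 1 array was left out. The 1 feature called in opposite directions became 3 with a filter in either screen, 0 without a filter, 2 with pseudocount 16, 2 without array weights, 31 with weights for each array, 0 with separate fits, 16 without arrays C and G, 3 with the block, 0 at a fold of at least 2, and 1 to 2 when 1 array was left out. Fewer arrays or features entered the settings that leave them out; for the others the cause was not tested. The difference changed sign for Pdlim1 (-0.353) and Mef2c (0.0517) with averaged probe sets, for Cd24a (0.0455) and Gp1bb (0.00920) with median centring, and for Adora2a (-0.0842) with quantile normalization. Of the other values for single genes, 2217 kept the direction and call of the difference, 148 gained and 194 lost the call; of shared changes 813 kept it and 140 lost it.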
